A study of Drosophila melanogaster with 2 samples.

Results

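tonalli (tna) and roadkill (rdx) were a pair of genes with many Tailless summits each in the early Drosophila melanogaster embryo. Their members are the ChIP-seq summits, the positions of strongest enrichment inside each deposited peak, for which the closest protein-coding transcription start site (TSS) belonged to tna or rdx and lay at most 20 kb away. The genes were selected on the count itself, over 10 summits each in the list past the irreproducible discovery rate (IDR) threshold, so those counts and the signals behind them are descriptions and carry no test. By this rule 24 of the 4045 thresholded summits were members, 13 of tna and 11 of rdx. In the list called on both replicates together, 86 of 30000 summits were members. The lists of single replicates, with 30000 summits each, held 85 for replicate 1 and 83 for replicate 3.

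The animals were whole embryos aged 0 to 4 h, males and females together, of the transgenic strain 8T-GFP, in which a stably expressed Tailless carries GFP at its C terminus. Chromatin was sonicated to 200 to 800 bp and precipitated with an antibody to GFP. There was 1 group of 2 biological replicates, labelled 1 and 3, and every value comes from 1 transgenic line. A single control alignment stands behind every list, and no other condition or untagged sample was analysed here. Read depth is unknown, since the lists hold no read counts. In whole embryos, binding in fewer cells and weaker binding in each cell cannot be told apart.

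Tailless is an orphan nuclear receptor of the terminal gap class, made at the embryo's ends, where it acts mostly as a repressor of other patterning genes. tna encodes a protein with an SP-RING domain, the domain of SUMO ligases, and belongs to the trithorax group, which keeps homeotic genes active; it interacts genetically with the Brahma chromatin remodelling complex. rdx encodes a MATH and BTB domain adaptor that brings Cubitus interruptus (Ci), the transcription factor of the Hedgehog pathway, to a Cullin-3 ubiquitin ligase, and rdx is itself induced by Hedgehog signalling.

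The sequences under the strongest summits are shown because AAGTCA, the half-site known for Tailless, was absent from all 24 windows. Each line gives 101 bases of the plus strand of the Release 6 assembly (dm6) centred on a thresholded summit, for the 4 non-exonic summits of each gene with the highest signal. Capitals mark the words searched, on either strand, so that TCTCTC is a match of the GAGA factor word and CATAAA a match of the Caudal word, both described with the counts of words.
tna 3L:10857542-10857642: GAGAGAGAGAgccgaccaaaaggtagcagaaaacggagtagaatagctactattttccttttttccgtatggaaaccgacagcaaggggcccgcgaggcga
tna 3L:10856696-10856796: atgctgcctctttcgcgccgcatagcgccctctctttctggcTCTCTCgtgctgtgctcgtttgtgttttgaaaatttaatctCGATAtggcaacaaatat
tna 3L:10842950-10843050: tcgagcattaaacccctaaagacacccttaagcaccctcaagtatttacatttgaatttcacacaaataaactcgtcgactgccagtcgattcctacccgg
tna 3L:10845922-10846022: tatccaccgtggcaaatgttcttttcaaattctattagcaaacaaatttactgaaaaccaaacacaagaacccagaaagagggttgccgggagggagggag
rdx 3R:13985114-13985214: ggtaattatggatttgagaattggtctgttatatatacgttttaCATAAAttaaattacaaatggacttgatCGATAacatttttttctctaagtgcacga
rdx 3R:13988801-13988901: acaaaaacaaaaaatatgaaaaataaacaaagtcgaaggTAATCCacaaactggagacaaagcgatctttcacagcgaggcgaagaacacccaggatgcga
rdx 3R:13985327-13985427: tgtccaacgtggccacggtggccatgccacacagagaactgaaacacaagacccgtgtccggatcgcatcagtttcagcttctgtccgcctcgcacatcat
rdx 3R:13990205-13990305: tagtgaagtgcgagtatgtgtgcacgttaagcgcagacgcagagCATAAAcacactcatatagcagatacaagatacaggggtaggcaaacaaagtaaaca

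The top tna window opened with a run of GAGAGA and held none of the other words. The second joined a TCTCTC to a CGATA, and the next pair of tna windows held no word searched. The top rdx window held TTTATG and CGATA on AT-rich sequence with a GC content of 27.7%, and the second held TAATCC. Over all members the GC content of these windows had a median of 43.6% for each gene, ranging from 33.7% to 50.5% at tna and from 27.7% to 56.4% at rdx. The median of all thresholded windows was 44.6%.

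Of 13741 protein-coding genes, 8 had over 10 thresholded summits, which is 0.0582%, and 2172 had at least 1, which is 15.8%. hth, a homeodomain cofactor of Hox proteins, led with 15, and tna came second. The pair-rule gene opa and the homeotic gene Antp had 12 each. The homeotic gene abd-A, the segmentation gene ftz and CG15283 had 11 each, as rdx did. Just outside the rule, tll itself, the homeotic gene Abd-B and the ecdysone-induced nuclear receptor gene Eip75B had 10 each.

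The strongest summits of tna and rdx were weaker than those of the other genes over the rule, on the authors' signal scale. The strongest summit of tna had a pooled signal of 717 and ranked 291 of all thresholded summits. That of rdx had 502 and ranked 675. The strongest summits of the other genes over the rule were 2491 at ftz, 2194 at opa, 1662 at hth, 1552 at abd-A, 1539 at Antp and 1047 at CG15283. Of the 3 genes just outside it, tll reached 1880 and Abd-B 1512, but Eip75B only 427, lower than rdx. Over the members the median pooled signal was 258 at tna and 240 at rdx, and 287 over all thresholded summits, whose maximum was 3700. Of the 24 members, 8 lay above that median, 5 of tna and 3 of rdx.

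Likeness was measured over 4 values (thresholded summits, pooled summits, log2 of the strongest signal and the share of summits within 500 bp of a TSS), each scaled by its SD over the 132 genes with at least 5 thresholded summits. The thresholded count that chose tna and rdx is 1 of the 4 values, so their closeness to each other is partly built in. The gene most like tna was rdx, at a distance of 1.29, followed by Eip75B at 2.06 and abd-A at 2.13. The gene most like rdx was Eip75B, at 0.867, before tna at 1.29 and the zinc-finger gene jing at 1.38. jing had 9 thresholded and 37 pooled summits and a strongest signal of 637.

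Both genes are long and stand next to much sequence of their own. tna (FBgn0026160) lies at 3L:10835528-10876496 on the plus strand, spans 41.0 kb and has 4 transcripts from 4 TSSs. rdx (FBgn0264493) lies at 3R:13967061-14032057 on the minus strand, spans 65.0 kb and has 5 transcripts from 4 TSSs. The sequence nearest to a gene's TSSs within 20 kb, here called its territory, was 49.3 kb for tna and 58.2 kb for rdx. These ranked 110 and 62 of the 13741 genes, whose median territory was 4.32 kb. Per 10 kb of territory tna had 2.64 thresholded summits and rdx 1.89, against 0.348 over all genes. The count that chose the genes enters these values, so an excess over all genes is partly built in. Among the 132 genes with at least 5 thresholded summits, the median was 2.23, so tna lay above it and rdx below it. opa and tll reached 5.08 and 5.04, hth had 2.34 and Antp 1.14.

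**Figure D1:**
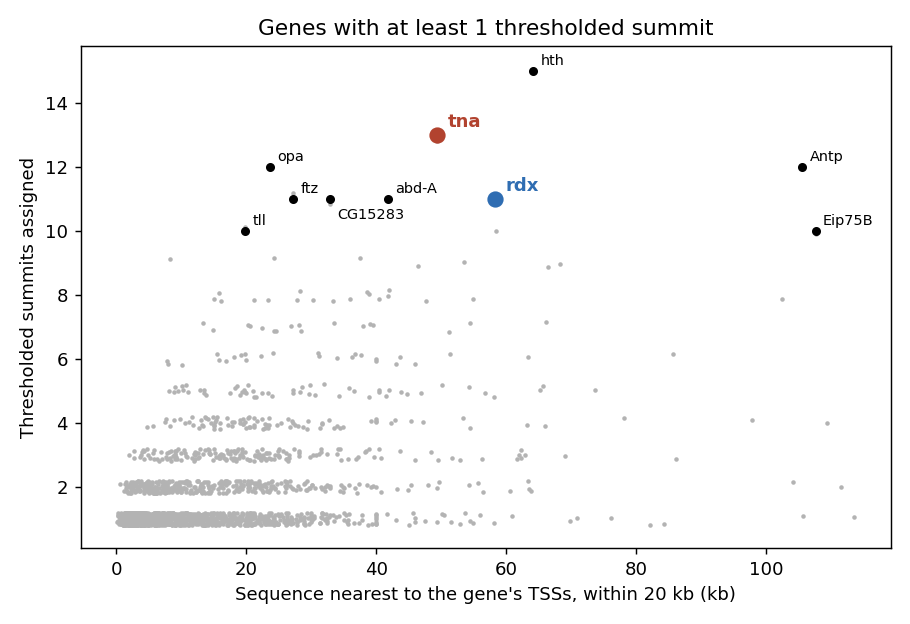
Thresholded summits assigned to a gene (y axis, spread slightly in height for the grey points) against the length of its territory in kb (x axis); each point is 1 of the 2172 genes with at least 1 thresholded summit. tna (13 summits, 49.3 kb) and rdx (11 summits, 58.2 kb) lie to the right of opa, ftz and tll, which reached similar counts in shorter territories.

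All 24 members lay inside the gene they were assigned to, and most were intronic. At tna 11 of 13 were in introns, 1 in a 5′ UTR and 1 in an exon of the non-coding RNA gene lncRNA:CR45169. At rdx 9 of 11 were in introns, 1 in an exon of asRNA:CR43460 and 1 in an exon of sisRNA:CR46363. Of all thresholded summits 41.9% were intronic, and long genes offer much intron. Within 500 bp of a TSS lay 3 members of tna and 2 of rdx, against 37.6% of all thresholded summits. Other genes with many summits had few there too: 2 of 15 at hth, 2 of 12 at opa and 0 of 12 at Antp. ftz and abd-A had 1 of 11 each, CG15283 0 of 11, tll 2 of 10, and Abd-B and Eip75B 1 of 10 each. The median distance was 6366 bp at tna and 1801 bp at rdx, and 1447 bp over all. At tna 7 members, and at rdx 4, were over 5 kb from any protein-coding TSS. The share of all thresholded summits that far away was not measured, and long territories leave room for such distances.

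The tna summits fell inside a stretch of 19.1 kb that crossed the TSSs at 22.4 and 22.9 kb and stopped short of the one at 34.3 kb. The first TSS, at 10835528, was the nearest for 3 thresholded summits, none closer than 7472 bp. The second, 22.4 kb downstream at 10857889, was nearest for 7, of which 2 lay within 500 bp. The third, at 10858404, was nearest for 3, of which 1 lay within 500 bp. The fourth, at 10869828, had no thresholded summit. Its nearest pooled summit lay 492 bp away with a signal of 66.2.

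The rdx summits spread over 56.6 kb in 3 groups. The most upstream TSS, at 14032057, was nearest for no thresholded summit. A pooled summit lay 113 bp upstream of it with a signal of 173, under the lowest thresholded signal of 194.6, and its replicate signals were 60.7 and 124.6. The second TSS, 6.10 kb downstream at 14025962, was nearest for 3 members, none within 500 bp. The third, 48.7 kb downstream at 13983363, was nearest for 5, and the fourth, at 13971800, was nearest for 3, with 1 within 500 bp at each. Between the groups lay a gap of 22.8 kb without a member, while the largest gap at tna was 5.22 kb. That gap holds a thresholded summit at 3R:14005390 with a signal of 268 (replicates 124.0 and 146.2), 20572 bp from the nearest protein-coding TSS. It lies in an rdx intron and missed the 20 kb rule narrowly.

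**Figure D2:**
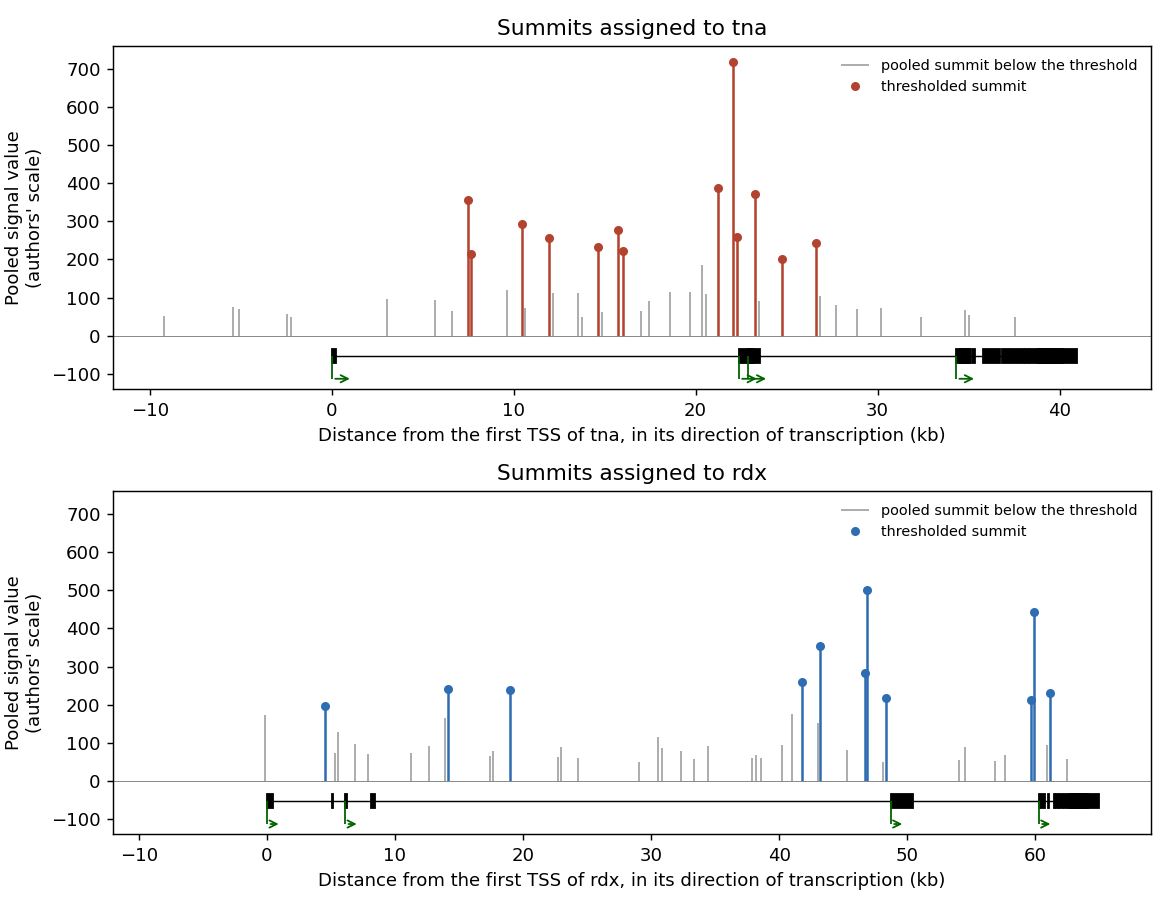
Pooled signal value (y axis, the authors' scale) of each summit of tna (upper) and rdx (lower) against its distance in kb from the gene's first TSS, in the direction of transcription (x axis). Coloured points are thresholded members, grey lines are pooled summits below the threshold, black boxes are exons and green arrows are TSSs. The tna members crowd between 7.5 and 26.6 kb, and the rdx members leave a gap of 22.8 kb in the middle of the gene.

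Genes around them had few thresholded summits, as most genes did: 15.8% of all genes had at least 1. Of the 10 other protein-coding genes within 20 kb of tna, CG42831 had 2 thresholded summits and the rest had none. None of the 8 around rdx had one, including Cyp6d5, a cytochrome P450 gene that lies inside rdx and had 3 pooled summits. The assignment rests on protein-coding TSSs alone. When TSSs of all genes were used, 6 members of tna passed to lncRNA:CR45169, which lies inside tna, and 1 member of rdx to sisRNA:CR46363. tna then had 7 thresholded summits and rdx 10, neither over the 10 of the rule that chose them.

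At the tna promoters, the strongest summit, at 3L:10857592, lay 297 bp upstream of the second TSS. The nearest summit in replicate 1, 35 bp away, had a signal of 369, and that in replicate 3, 40 bp away, had 350. These were the highest values of any tna member in either replicate. A second summit in the same interval, at 10857797 and 92 bp upstream of that TSS, had 82.1 in replicate 1 and 74.8 in replicate 3, the lowest of any tna member in either replicate. The summit at 10858816, in a 5′ UTR 412 bp past the third TSS, had 183.6 and 182.3. At 1143 bp upstream of the second TSS, the summit at 10856746 had 218.1 and 167.5.

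Between the first and second TSSs, replicate 1 was often the higher. The summit at 10851282 had 194.4 in replicate 1 and 84.8 in replicate 3, a ratio of 2.29 and the widest of all members. The summit at 10850179, in the exon of lncRNA:CR45169, had 146.7 and 87.3. Farthest upstream, the summit at 10843000 had 224.9 and 175.2. The member at 10843205 has the same nearest replicate summits, so these values count for both members below. Replicate 3 was higher at 10845972, where the values were 133.8 and 178.5. Replicate 1 was higher at 10 of 13 tna members, with a median ratio of 1.28, and over all thresholded summits the median ratio, from overlapping entries, was 1.11. The summit at 10860294 was the member that lay inside no replicate 3 entry, although a replicate 3 summit with a signal of 109.0 lay 37 bp away.

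At rdx the strongest summit, at 3R:13985164, lay 1801 bp upstream of the third TSS and had signals of 241.3 in replicate 1 and 270.1 in replicate 3. An overlapping peak had its summit at 13985377, with 127.4 and 105.3. The summit closest to that TSS, at 13983743 and 380 bp upstream of it, had 110.1 and 116.3. At the fourth TSS, the summit at 13972166 lay 366 bp upstream and had 254.0 and 197.4. The promoter-proximal rdx summits therefore included both a strong and a weak one in each replicate.

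The rdx summits with the widest ratios between replicates lay over 500 bp from a TSS. At 14027495, near the second TSS, replicate 1 had 65.7 and replicate 3 had 129.2. At 13990255 the values were 88.6 and 157.6. At 13988851 the order was the opposite, with 224.3 in replicate 1 and 121.6 in replicate 3. Replicate 1 was higher at 6 of 11 rdx members, and the ratio ran from 0.508 to 1.84.

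**Figure D3:**
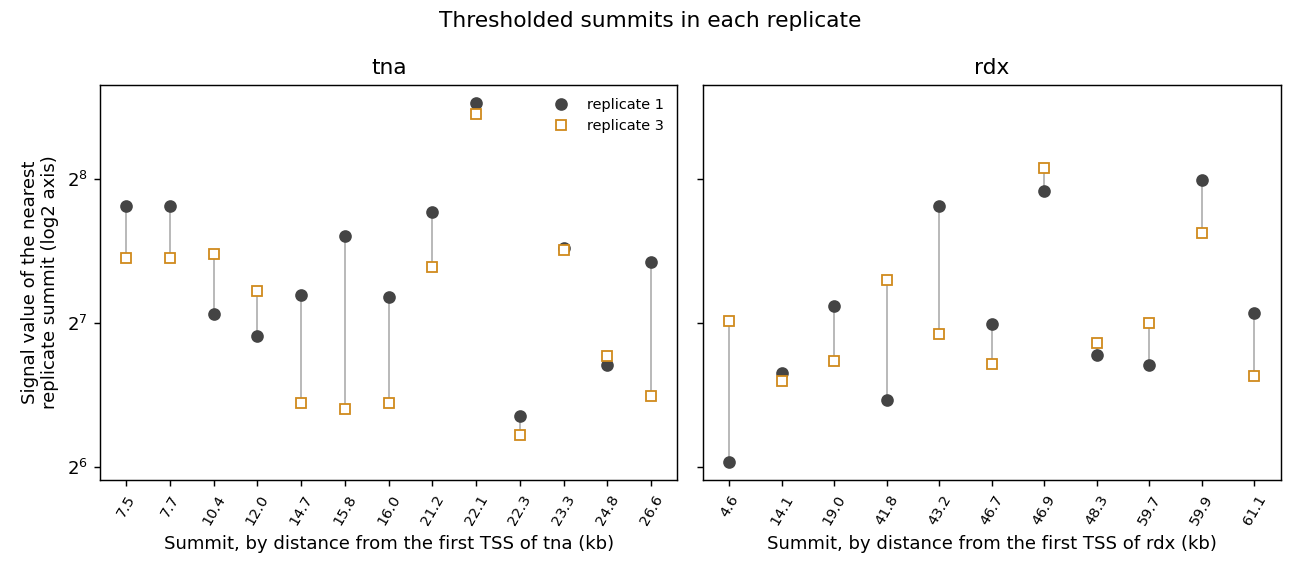
Signal value of the replicate summit nearest to each thresholded member (y axis, log2) in replicate 1 (filled circles) and replicate 3 (open squares), with members ordered by distance from the first TSS (x axis, kb). The tna summit at 22.1 kb is the highest in both replicates (369 and 350), and replicate 1 is the higher at 10 of 13 tna and 6 of 11 rdx members.

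By the nearest replicate summit, the median signal of the tna members was 171.3 in replicate 1 and 149.3 in replicate 3, and of the rdx members 127.4 and 121.6. By the strongest replicate entry overlapping each interval, where summits of 1 interval share a value, the replicate medians were 183.6 and 167.5 at tna and 156.8 and 129.2 at rdx. The median over summits of the mean log2 value was then 7.27 at tna, 6.95 at rdx and 7.29 over all thresholded summits. On the log2 scale the replicate medians were 7.52 and 7.39 at tna and 7.29 and 7.01 at rdx. Their SDs were 0.09 and 0.20 (n = 2) and do not measure the spread of the median of means. The ranges of tna and rdx overlapped in each replicate. Replicate signals of the 24 members had a Pearson correlation of 0.585 on the log2 scale and a Spearman correlation of 0.470 by the nearest summits. With the entries overlapping the interval these were 0.627 and 0.612. These describe points that share a control and, for some, an interval or a replicate summit, so no p is given.

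Nearly all members recurred in both replicates, as thresholded summits did at large. The IDR threshold that members passed selects for reproducibility between replicates, so this recurrence is partly built in. Of the 13 at tna 12 lay inside an entry of each replicate list, as did 11 of 11 at rdx and 98.2% of all thresholded summits. Summits of both replicates lay within 100 bp for 11 members of tna and 10 of rdx, against 94% over all. The median offset was 29 bp in replicate 1 and 37 bp in replicate 3 at tna, and 13 and 21 bp at rdx. Of the 4045 strongest summits of its own list, replicate 1 had 10 assigned to tna and 9 to rdx, and replicate 3 had 9 and 11. These are the replicate's own summits, not a count of members found again.

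Peak widths of the members lay mostly below the width the authors' caller gave most often. That width was 516 bp in the pooled list, where 88.0% of entries had it. Widths ran from 245 to 729 bp at tna, with a median of 407 bp, and from 243 to 624 bp at rdx, with a median of 438 bp. The median over all thresholded summits was 516 bp, and the share of them below that width was not measured. The width of 516 bp was held by 1 member of tna and 3 of rdx, against 32.6% of all thresholded summits. At tna 4 members shared an interval with another, in 2 pairs, against 15.3% over all, and at rdx none did. The members thus rested on 11 intervals for each gene, and after overlapping intervals were merged on 11 and 9. The widest interval, of 729 bp, held the strongest tna summit. Summits in 1 interval are not independent sites.

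Of the pooled summits of tna 31.0% were thresholded, and of those of rdx 25%, against 13.5% of all pooled summits. The genes were chosen by their thresholded counts, so high shares are partly built into the choice. The remaining 29 of tna and 33 of rdx included some just under the threshold, such as the tna summit at 10855907 with a signal of 186 (replicates 53.3 and 126.9) and the rdx summit at 13991027 with 175 (88.7 and 87.6). The lowest members had pooled signals of 200.0 at tna and 196.4 at rdx.

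Words known for factors of the early embryo were counted within 50 bp of the summit on both strands; a match is a description of letters and not a binding site. AAGTCA occurred at none of the 24 members, against 15% of all thresholded summits. A count of 0 of 13 at tna allows a share of up to 23.1% and 0 of 11 at rdx up to 27.3%, both above the share over all. A count of 0 of 24 allows up to 12.5%. These limits cover counting error only and treat summits as independent, which those sharing an interval are not. The longer AAAGTCA, which contains it, occurred at none either (8.31% over all). The shorter AGTCA, added after the values were seen, occurred at 1 tna member and no rdx member (27.5% over all). This absence was shared by other genes. Of the 132 genes with at least 5 thresholded summits, 52 had no AAGTCA at any of them, and of the 11 with at least 10, tna, rdx and ftz had none.

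AAGTCA was present farther out. Within 100 bp it occurred at 2 members of tna and 1 of rdx, against 24.3% of all thresholded summits. Over whole intervals it occurred in 3 of 11 at tna and 1 of 11 at rdx, against 35.4% of all thresholded intervals. The copy closest to a summit lay 56 bp away at tna and 72 bp at rdx. The gene spans held 20 copies at tna and 44 at rdx, or 4.88 and 6.77 per 10 kb, against 5.78 over the genome. At pooled summits below the threshold it occurred at 0 of 29 for tna and 3 of 33 for rdx, against 9.09% of all such summits.

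GAGAGA, the word of GAGA factor, which opens chromatin at many promoters, occurred at 5 members of tna and 2 of rdx, against 6.97% of all thresholded summits. It occurred at 4 of the 5 members within 500 bp of a TSS, against 5.99% of all thresholded summits at that distance. The tna pair there shares 1 interval. Of the 19 members farther away it occurred at 3, all of tna, against 7.56%. The split by distance was made after the values were seen.

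Of the other words, TAATCC, the word of the anterior factor Bicoid, occurred at no member of tna and 3 of rdx (4.62% over all). TTTATG, the word of the posterior factor Caudal, occurred at 1 and 2 (12.3% over all). CAGGTA, the word of Zelda, which opens chromatin in the early embryo, occurred at 0 and 1 (7.24%). AGGTCA, a half-site of many nuclear receptors, occurred at 1 and 0 (3.71%). CGATA, part of the word of the insulator protein BEAF-32, occurred at 2 and 1 (13.5%). TATCGATA, the DNA replication-related element of core promoters, which contains CGATA, occurred at none (1.71%), and CAGCTG, an E-box, at none (5.61%).

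**Figure D4:**
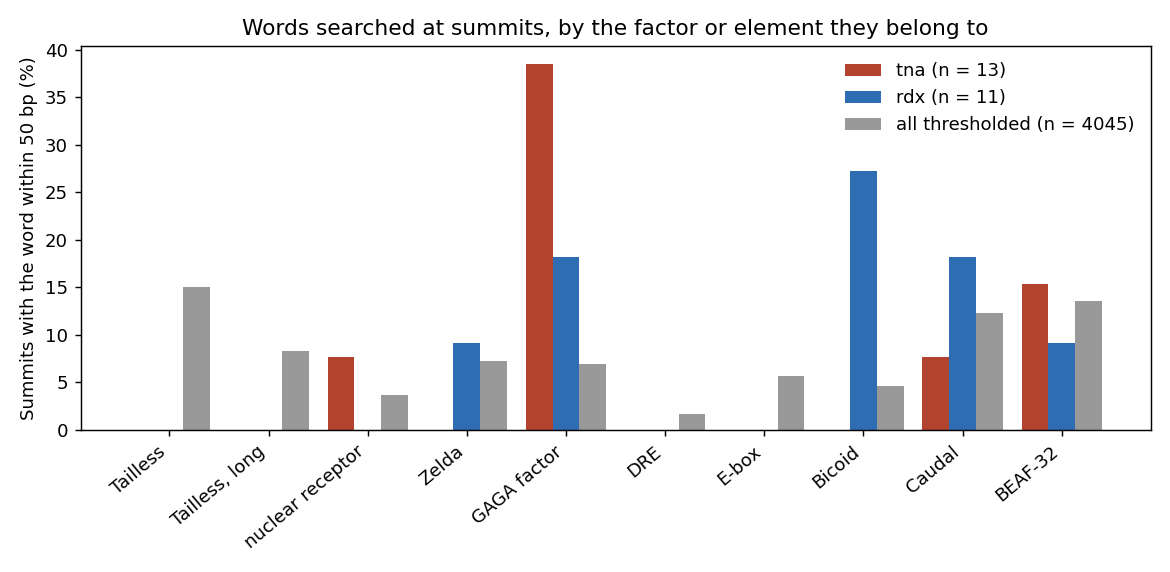
Share of thresholded summits with each word within 50 bp (y axis, percent) for tna (13 summits), rdx (11 summits) and all 4045 thresholded summits, with the words named on the x axis by the factor or element they are known for. The Tailless words are at 0 for both genes and at 15% and 8.31% over all, and the GAGA factor word stands at 5 of 13 and 2 of 11 summits against 6.97%.

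Genes of the pathways in which both proteins work were counted as bound where they had at least 1 thresholded summit. Of 19 Hedgehog pathway genes other than rdx 11 were bound, against 15.8% of all genes, with a median of 1 summit per gene against 0 over all genes. The territories of this list had a median of 9.90 kb, longer than that of all genes. This list and those below were chosen with earlier results of these data known, so the comparisons are descriptions. Among genes for the ligand's handling, hh, the ligand, had 4 thresholded summits. Its strongest had a signal of 329 in replicate 1 and 226 in replicate 3. The glypican gene dlp had 7, and its strongest, with 1075 and 953, ranked 12 of all thresholded summits, above both tna and rdx. The glypican gene dally had 4, with 544 and 330 at its strongest, and disp, which releases the ligand, and shf, which aids its spread, had 1 each.

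The receptor gene ptc had 3, with 238 and 140 at its strongest, and the coreceptor gene boi had 1. ci, whose protein is the target of the Rdx adaptor, had 3 with 148 and 129 at the strongest, 75 bp from a TSS. The kinase genes sgg, CkIalpha and fu had 2, 1 and 1. smo, cos, Su(fu), ihog, rasp, Pka-C1, slmb and Gprk2 had none. By the nearest TSS, bound genes thus included those of the ligand, its carriers, its receptor and the pathway's transcription factor. Several strongest summits were remote: 11326 bp from a TSS at dlp, 8540 bp at ptc, 3978 bp at boi and 3269 bp at hh. Those of dally and shf lay 2302 and 1765 bp away, and those of sgg, CkIalpha, disp and fu 166, 85, 56 and 16 bp. Counted over gene bodies with 2 kb to either side, 14 of the 19 were bound: smo, cos and Gprk2, whose territories are shorter than the median gene's, then had 1, 2 and 1 summits. The share of all genes bound by that wider count was not measured.

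The Cullin-3 ligase genes, partners of the Rdx adaptor, had 1 of 6 bound (15.8% over all genes), Keap1, with 180 and 178 at its strongest summit, 473 bp from a TSS. This list named 7 genes, but klhl10 was not found among the annotated genes of the chromosome arms and was left out. Of 10 Brahma complex genes 3 were bound, against the same 15.8%, in territories with a median of 3.45 kb. osa had 2 summits, and brm, the ATPase, and mor, a core subunit, had 1 each. The brm summit, 89 bp from a TSS, had 234 in replicate 1 and 271 in replicate 3. The mor summit lay 32 bp from a TSS, and the strongest osa summit 7315 bp. Of 10 other trithorax group genes, whose territories had a median of 10.9 kb, 4 were bound, again against 15.8%: trx and kis had 4 each, skd had 3 and Trl, which encodes GAGA factor, had 2. The strongest summits of trx, kis, skd and Trl lay 8872, 200, 472 and 359 bp from a TSS. In the SUMO pathway, to which the SP-RING domain in the Tna protein belongs, territories had a median of 3.685 kb. Of its 9 genes 0 were bound by the nearest TSS, against 15.8% of all genes. Over gene bodies with 2 kb to either side 3 were: velo had 4 summits, and Uba2 and Su(var)2-10 had 1 each. The same count gave 2 Cullin-3, 5 Brahma and 6 other trithorax group genes. The share of all genes bound by this wider count was not measured, so 15.8% is no background for it. No difference between the lists was tested.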

How the data were processed

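Tailless binding was taken from 4 peak lists that the authors deposited on dm6: replicates 1 and 3, both pooled, and the pooled peaks past an IDR threshold. Per the file headers, each list came from the replicate alignments and 1 control alignment. The aligner, peak caller and IDR threshold were not given in the sources used here. Each signal value is the authors' enrichment per peak, on a scale that is not stated. Because the authors' −log10 q-values tie at their maximum, ranks follow the signal. Positions come from the offset column that the authors deposited. Read depth is unknown.

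Summits were assigned to the nearest protein-coding TSS of Ensembl release 115 (BDGP6.54) within 20 kb, and sequence came from RefSeq's Release 6 assembly. Python 3.11.15, numpy 2.4.6, pandas 2.3.3, scipy 1.17.1 and matplotlib 3.10.9 were used, and the scripts were tested on simulated data. All per-summit replicate signals in the text are those of the nearest replicate summit, a choice added after the values were seen, unless an overlapping entry is named. The unassigned summit, those just below the threshold and the strongest summits of pathway genes carry overlapping entries.

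Named genes were tna, rdx, protein-coding genes within 20 kb of either, bound members of 5 gene lists, genes with 10 to 15 thresholded summits, and the 3 genes most like each; others are named to complete a list. Members and lists were chosen with earlier results of these data known. Alternatives were other distances, TSS sets, windows, stricter lists and single replicates.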

Additional observations from a re-analysis of the deposited data

How the results depend on the processing

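Of 81 alternative values 58 stayed within 1.5 times the count, or within the SD between replicates, and 23 moved. No direction could reverse, since no test was made. Above the median signal tna had 5, rdx 3 and the Hedgehog list 6 bound genes. With TSSs of all genes tna had 7 thresholded and 25 pooled summits. With a limit of 10 kb rdx had 29 pooled summits. By the strongest replicate entries, 7 members of each gene recurred in both replicates. Within 250 bp of a TSS lay 1 member of tna and 0 of rdx, and within 1000 bp 4 of rdx. Within 100 bp, AAGTCA occurred at 2 members of tna and 1 of rdx. The median log2 replicate signal of tna was 7.07 with 1 summit per interval or by the nearest replicate summit, and 7.39 as a mean. For rdx the mean was 7.27. When each replicate was left out, the median ran from 7.39 to 7.52 at tna and from 7.01 to 7.29 at rdx. With gene bodies and 2 kb to either side, 2 Cullin-3, 5 Brahma and 3 SUMO genes were bound, with no share of all genes measured by that count. The causes were not tested. Without read counts, the depth limit of weak summits is unknown. No paired analysis was possible because there was 1 group.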
